A study of Mus musculus with 8 samples.

Results

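T cell and regulatory T cell genes were examined in the stromal vascular fraction (SVF) of gonadal white adipose tissue (WAT), which holds the cells of the digested fat pad other than adipocytes. The set held 36 genes, chosen by name: 8 genes of the T cell receptor and its CD3 complex, 4 pan T cell surface genes, 5 genes of proximal receptor signaling, 3 T lineage transcription factors, Cd4, the CD8 genes Cd8a and Cd8b1, 6 regulatory T cell genes, 5 costimulation and checkpoint genes and 2 chemokine receptors. All 36 were among the 54532 genes of the deposited count table and all 36 passed the filter on low counts, which left 15963 genes for testing. All mice were male C57BL/6J without a transgene, fed a high-fat diet (HFD, 60% of calories as fat) for 12 weeks, and then a normal chow diet (NCD, 16% of calories as fat) for another 6 weeks. During those 6 weeks, 4 mice (numbers 1, 2, 6 and 9) received an IgG1k isotype control Ab and 4 mice (numbers 5, 7, 8 and 10) received the anti-BAFF Ab Sandy-2, each at 2 mg/kg every 2 weeks, and 1 fat pad per mouse was digested at week 18. The series' own description gives an age of 6 weeks at the start of the HFD, whereas the methods name older mice. Obesity and the switch of diet were thus common to both groups, and no lean or untreated mice were among the libraries analysed here. The SVF was not sorted, so each library mixes T cells with macrophages, progenitors, endothelial cells and other leukocytes.

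BAFF is a survival factor for mature B cells, and the comparison asked whether T cell transcripts of the fat also differed once it was neutralized. T cells recognise antigen through a receptor of paired alpha and beta or gamma and delta chains, and the CD3 and zeta chains bound to it carry the signal into the cell. Helper T cells carry CD4 and cytotoxic T cells carry CD8 as coreceptors, while regulatory T cells express the transcription factor Foxp3 and restrain other leukocytes. Visceral fat of lean mice is known as a site rich in regulatory T cells, and obese fat for its accumulation of CD8+ T cells.

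The libraries held between 13562340 and 18548024 counts, and 3 counts in the smallest corresponded to 0.219 CPM (the count rescaled so that all libraries have the same size), the level below which this depth shows little. The library sizes were scaled by TMM, and intervals cover the spread between mice, each of which is 1 library. Control mouse 1 stood apart from the other control Ab-treated mice, with a chi-square per degree of freedom over genes of 60.0 to 77.4 against each of them, whereas the other pairs within a group gave 7.91 to 36.7. Values without this mouse are given beside several of the results. The digests also carried epididymal RNA to different degrees: Crisp1, a secreted protein of the epididymis, ranged from 2.98 CPM in control mouse 1 to 997 CPM in anti-BAFF mouse 7, and was second highest in control mouse 2 at 742 CPM.

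None of the 36 genes reached an adjusted p of 0.05 by edgeR's quasi-likelihood test, with a lowest adjusted p of 1.00, in a comparison where 0.0564% of all genes tested did (9 genes). At an unadjusted p of 0.05, edgeR called 1 of the 36, Cd6, which was lower after anti-BAFF Ab, against 1.24% of all genes tested lower, 0.664% higher and 1.9% in either direction. DESeq2 called 0 of the 36 at an adjusted p of 0.05 (0.264% of all genes) and 2 at an unadjusted p of 0.05, Cd6 and Tnfrsf4 (1.34%). Limma on log2(FPKM + 1) called 0 (0.0626%) and 2, Cd5 and Cd6 (2.12%). The fold changes of 28 of the 36 genes lay below 0 (anti-BAFF Ab over control Ab), against 48.5% of all genes tested. Their median log2 fold change was -0.14, against 0.00 for all genes tested. Leaving out 1 mouse at a time gave 22 to 30 genes below 0, with 22 without control mouse 9, 23 without anti-BAFF mouse 10 and 24 without control mouse 1, where the median was -0.07. In bulk libraries fewer T cells and less RNA per T cell cannot be told apart. A p-value that misses the threshold does not show that a gene was unaltered, so the 95% interval of each difference is given below. For 27 of the 36 genes that interval lay within a 2-fold change in either direction, as it did for 83.8% of all genes tested.

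**Figure D1:**
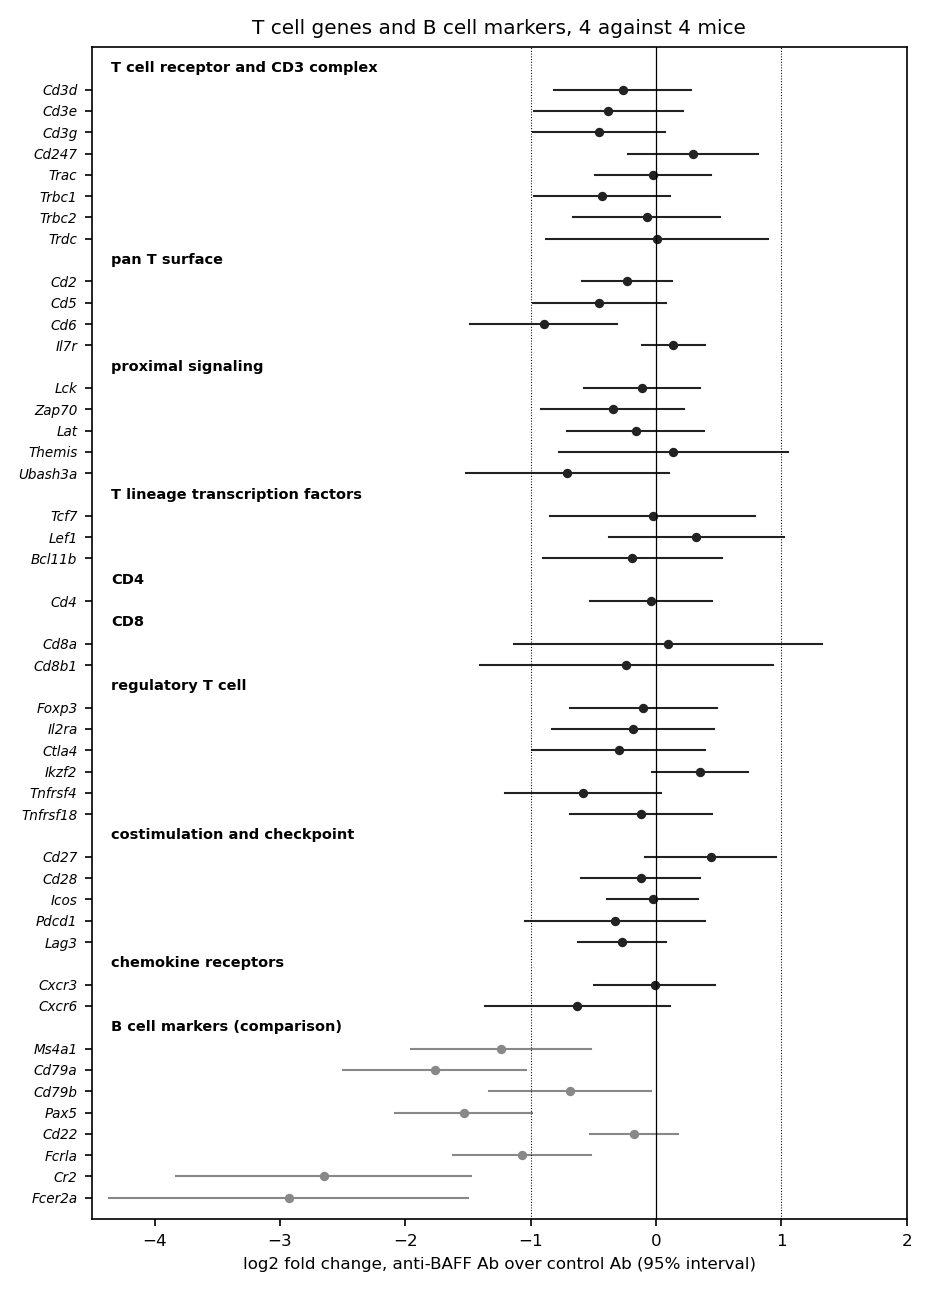
Points are log2 fold changes (anti-BAFF Ab over control Ab, 4 against 4 mice) of the 36 T cell genes by role and, in grey, of B cell markers; lines are 95% intervals from edgeR, the solid vertical line is no change and the dotted lines are 2-fold changes. Of the T cell genes only the interval of Cd6 (-1.48 to -0.31) leaves out 0, and the intervals of the B cell markers drawn lie below 0 except that of Cd22.

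Levels were compared between genes per gene length, as FPKM (CPM divided by the gene length in kilobases) in the control Ab-treated mice. Il7r, the receptor for interleukin-7 that T cells and innate lymphoid cells use for survival, was highest at 19.4 ± 1.65 FPKM (SD, n = 4), with a range over mice that did not meet that of any gene below it. The beta chain constant genes Trbc2 and Trbc1 followed at 9.93 ± 3.06 and 9.24 ± 2.63 FPKM, then Cd2 at 6.65 ± 1.16 and Pdcd1 at 5.19 ± 2.64. The order below Il7r was loose, since the ranges of neighbouring genes overlapped at each step but 1, between Foxp3 and Lef1. The lowest levels were those of Foxp3 at 0.385 ± 0.0725 FPKM, the transcription factor Lef1 at 0.180 ± 0.0651 and the thymocyte-expressed signaling protein Themis at 0.116 ± 0.0610. Of the defining T cell genes Cd3d, Cd3e, Cd3g and Trac, none was absent in any mouse, and the lowest level among them was 1.82 CPM, of Cd3d in anti-BAFF mouse 10.

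**Figure D2:**
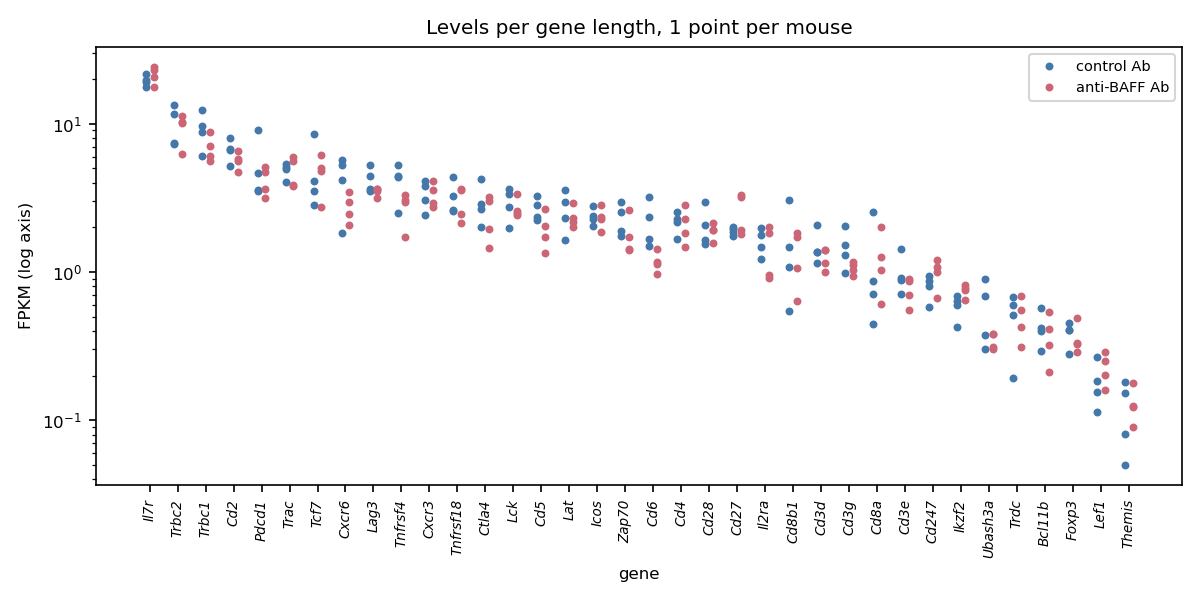
Each point is 1 mouse, the vertical axis is FPKM on a log scale, and the 36 genes are ordered by their mean in the control Ab-treated mice. Il7r stands above the rest at 17.5 to 21.5 FPKM in the control Ab-treated mice, and the points of the 2 groups lie over each other for nearly every gene.

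The CD3 genes pass the signal of the bound receptor, and Cd3g, Cd3d and Cd3e lie together on chromosome 9, with the starts of Cd3g and Cd3d 1355 bases apart and those of Cd3g and Cd3e 29196 bases apart. Their promoters are shown because these neighbouring genes code for the subunits that define the T cell lineage. The sequences are RefSeq's for GRCm38.p6, from 250 bases before to 50 bases after the start, and 24 of the 36 genes had an entry (33 entries). Cd3g lies at chr9:44980382-44980681 on the minus strand, Cd3d at chr9:44981536-44981835 on the plus strand and Cd3e at chr9:45009562-45009861 on the minus strand, and each sequence reads 5′ to 3′ along its gene's strand. Capitals mark matches on either strand to 4 motifs of 6 letters each, spelled out after the sequences, and no match overlapped another.
Cd3g: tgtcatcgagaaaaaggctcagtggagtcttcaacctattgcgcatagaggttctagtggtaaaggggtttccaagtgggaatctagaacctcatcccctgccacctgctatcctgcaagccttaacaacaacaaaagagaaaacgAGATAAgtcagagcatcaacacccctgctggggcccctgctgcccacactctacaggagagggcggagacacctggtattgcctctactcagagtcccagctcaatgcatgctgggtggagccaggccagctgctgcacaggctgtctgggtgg
Cd3d: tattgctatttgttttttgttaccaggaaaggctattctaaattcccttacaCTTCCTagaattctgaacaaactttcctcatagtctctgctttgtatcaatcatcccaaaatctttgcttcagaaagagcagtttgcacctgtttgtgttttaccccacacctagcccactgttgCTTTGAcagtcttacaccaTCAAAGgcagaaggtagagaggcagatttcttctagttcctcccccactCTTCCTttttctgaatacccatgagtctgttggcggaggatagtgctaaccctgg
Cd3e: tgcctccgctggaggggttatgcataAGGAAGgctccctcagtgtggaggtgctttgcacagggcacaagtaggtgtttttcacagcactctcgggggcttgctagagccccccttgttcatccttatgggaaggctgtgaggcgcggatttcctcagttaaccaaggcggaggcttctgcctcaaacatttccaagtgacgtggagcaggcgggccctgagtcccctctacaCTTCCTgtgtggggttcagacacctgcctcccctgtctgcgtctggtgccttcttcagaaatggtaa

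The Cd3g promoter held 1 match to the GATA motif, that of Cd3d 2 matches to TCF/LEF and 2 to ETS, and that of Cd3e 2 matches to ETS. The sequences printed were chosen after the matches were seen: the promoters of Cd8a, Foxp3 and Tcf7 were also searched and held 0 matches. Over all 33 entries of the T cell genes, the ETS motif (AGGAAG) was found in 51.5%, against 35.4% of all 32851 promoters of the same length. For the TCF/LEF motif (CTTTGA) the shares were 24.2% against 16.0%. The RUNX motif (TGTGGT) was found in 18.2% of them and in 16.8% of all promoters, and the GATA motif (AGATAA) in 12.1% and 11.2%. A match of 6 letters is a description of the sequence and not a site of binding.

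Cd3e, the epsilon chain, was counted at 5.83, 2.90, 3.73 and 3.59 CPM in control mice 1, 2, 6 and 9 and at 3.57, 2.87, 3.65 and 2.26 CPM in anti-BAFF mice 5, 7, 8 and 10, and the same order of mice holds for the lists of values that follow. Control mouse 1 was the highest and the groups overlapped. The log2 fold change of Cd3e was -0.38 (95% interval -0.97 to 0.22), and -0.16 without control mouse 1. Cd3g, the gamma chain, was at 6.70, 4.26, 3.22 and 4.96 CPM against 3.84, 3.66, 3.39 and 3.09 CPM, a difference of -0.45 (-0.98 to 0.07) on the log2 scale. Its groups overlapped through control mouse 6, and without control mouse 1 the difference was -0.27. Cd3d, the delta chain, was at 3.78, 2.07, 2.49 and 2.48 CPM against 2.56, 2.53, 2.09 and 1.82 CPM, or -0.27 (-0.81 to 0.28). Without control mouse 1 that value was -0.08. Cd247, the zeta chain, differed from the other CD3 genes in the sign of its estimate: it was at 3.10, 4.32, 4.61 and 5.02 CPM against 5.72, 3.55, 5.29 and 6.40 CPM, or 0.30 (-0.22 to 0.82). Control mouse 1, highest in the other CD3 genes, was the lowest of the 8 mice in Cd247, and the value without it was 0.15. The opposite-strand gene Pou2f1 overlaps Cd247 and held 291 to 417 counts per mouse, and the sources used here do not say whether strand was used in counting, so its reads may be mixed into those of Cd247.

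The constant genes of the receptor chains overlapped between the groups as well. Trac, the alpha chain constant gene, was at 4.78, 4.61, 3.80 and 5.02 CPM against 5.59, 3.55, 5.22 and 3.59 CPM, with a log2 fold change of -0.03 (-0.49 to 0.44). The 4 anti-BAFF Ab-treated mice fell into a higher and a lower pair around the control values. Trbc1 was at 9.31, 7.27, 4.54 and 6.57 CPM against 5.32, 4.17, 6.59 and 4.52 CPM (-0.43, -0.97 to 0.11, and -0.27 without control mouse 1), and Trbc2 at 9.31, 5.14, 5.05 and 7.99 CPM against 6.93, 7.77, 7.11 and 4.30 CPM (-0.08, -0.66 to 0.51). Trbc1 and Trbc2 are near-identical copies, and how reads shared by them were assigned is not known, so the difference between their estimates is uncertain. Trdc, the delta chain constant gene, ranged from 0.744 CPM in control mouse 1 to 2.65 CPM in anti-BAFF mouse 10, with a log2 fold change of 0.01 (-0.88 to 0.89). Control mouse 1 was thus highest in the beta chain genes and lowest in Trdc, and without it the value for Trdc was -0.28.

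Among the pan T cell surface genes, Cd6 had the smallest p of the 36 genes. It codes for a scavenger receptor-like protein that binds CD166 (Alcam) and tunes receptor signaling, and lies at chr19:10789341-10830058 beside the related Cd5 on the minus strand in mm10. Cd6 was counted at 10.9, 5.08, 5.63 and 7.99 CPM in the control Ab-treated mice and at 3.84, 3.94, 4.83 and 3.31 CPM after anti-BAFF Ab. All 4 control values lay above all 4 anti-BAFF values, as for 0.952% of all genes tested in that direction (0.526% in the other and 1.48% in either), and Cd6 was the only 1 of the 36 whose groups did not overlap. The log2 fold change was -0.90 ± 0.26 (SE, 95% interval -1.48 to -0.31), with an unadjusted p of 0.00703 and an adjusted p of 1.00 by edgeR's quasi-likelihood test. Without control mouse 1 it was -0.67, with an adjusted p of 0.373, and the value ranged from -1.04 to -0.67 when each mouse was left out in turn. Over all settings run, its adjusted p lay between 0.373 and 1.00. A count of 1 in 36 genes is read against the background share of 1.9%, and Cd6 did not pass the correction.

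Cd5, its neighbour and a negative regulator of receptor signaling, was also lower in the estimate, at 2.76 to 5.48 CPM after anti-BAFF Ab and 4.61 to 6.70 CPM after control Ab (log2 fold change -0.45, interval -0.98 to 0.08). Cd5 and Cd6 are also known on B-1 cells, so the summed level of the B cell markers is given here. The 9 markers, among them Ms4a1, Cd79a, Cd79b and Pax5, summed to 58.6 to 68.2 CPM in the control Ab-treated mice and 25.3 to 47.9 CPM after anti-BAFF Ab. All 9 had estimates below 0, with a median log2 fold change of -1.40, 8 of them at an unadjusted p under 0.05 and 0 at an adjusted p of 0.05 by edgeR, and the groups did not overlap for 7. The defining receptor chain gene Cd79a was at 9.0 to 12.4 CPM against 1.77 to 4.76 CPM. The part of B cells in the values of Cd5 and Cd6 was not tested, and neither was the difference between the T cell and B cell gene lists.

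Cd2, an adhesion receptor of T and NK cells, ranged from 8.16 to 13.9 CPM over the 8 mice with a log2 fold change of -0.23 (-0.59 to 0.13). Il7r gave the narrowest interval of the set: it was at 100.3, 81.8, 88.3 and 91.1 CPM against 82.0, 96.6, 106 and 112 CPM, or 0.14 (-0.11 to 0.39). Its highest mouse, anti-BAFF mouse 10, was 1.38 times its lowest, control mouse 2. Several innate lymphoid and myeloid cells also express Il7r, and their part in this value was not tested.

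The 5 genes of proximal signaling act just below the receptor. Lck, the kinase that starts the signal, ranged from 5.78 to 10.6 CPM (log2 fold change -0.11, interval -0.58 to 0.35), and Zap70, the kinase it activates, from 4.18 to 8.81 CPM (-0.35, -0.92 to 0.23). The value of Zap70 was -0.22 without control mouse 1 and -0.60 without anti-BAFF mouse 5. Lat, the adaptor on which signaling proteins assemble, ranged from 4.55 to 9.86 CPM (-0.16, -0.71 to 0.38) and Themis from 0.585 to 2.11 CPM (0.14, -0.78 to 1.05). In none of these did the groups separate. Ubash3a, a phosphatase-like protein that restrains receptor signaling, was at 2.30, 1.01, 1.24 and 2.97 CPM against 1.28, 1.01, 1.04 and 1.27 CPM. The 4 anti-BAFF values had an SD of 0.142 CPM, whereas the control values, with an SD of 0.920 CPM, were highest in control mice 9 and 1. The log2 fold change was -0.71 (-1.52 to 0.10) with an unadjusted p of 0.0803 and an adjusted p of 1.00 by edgeR. Control mouse 9 carried much of it, since the estimate was -0.39 without that mouse.

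Of the T lineage transcription factors, Tcf7, which marks naive and memory T cells, was at 9.24, 22.5, 7.39 and 10.8 CPM against 12.6, 16.2, 13.2 and 7.17 CPM. Its 2 highest mice, control mouse 2 and anti-BAFF mouse 7, were also the 2 with the most Crisp1. The log2 fold change of Tcf7 was -0.03 (-0.84 to 0.79), 0.42 without control mouse 2, and 0.24 without both of those mice, a choice made after the values were seen. Lef1, the related factor, ranged from 1.01 to 2.55 CPM (0.32, -0.38 to 1.02) and Bcl11b, which fixes the T cell fate in the thymus, from 1.71 to 4.65 CPM (-0.19, -0.90 to 0.53). Without control mouse 1 the values were 0.56 for Lef1 and -0.022 for Bcl11b. Over the 8 mice Tcf7 and Adam7, another gene of the epididymis, gave Pearson r = 0.62 (permutation p = 0.104, adjusted p = 0.136 over 7 relations) and Spearman rho = 0.69 (permutation p = 0.0694, adjusted p = 0.194). That r was 0.075 without control mouse 2 and anti-BAFF mouse 7, on which it rests.

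**Figure D3:**
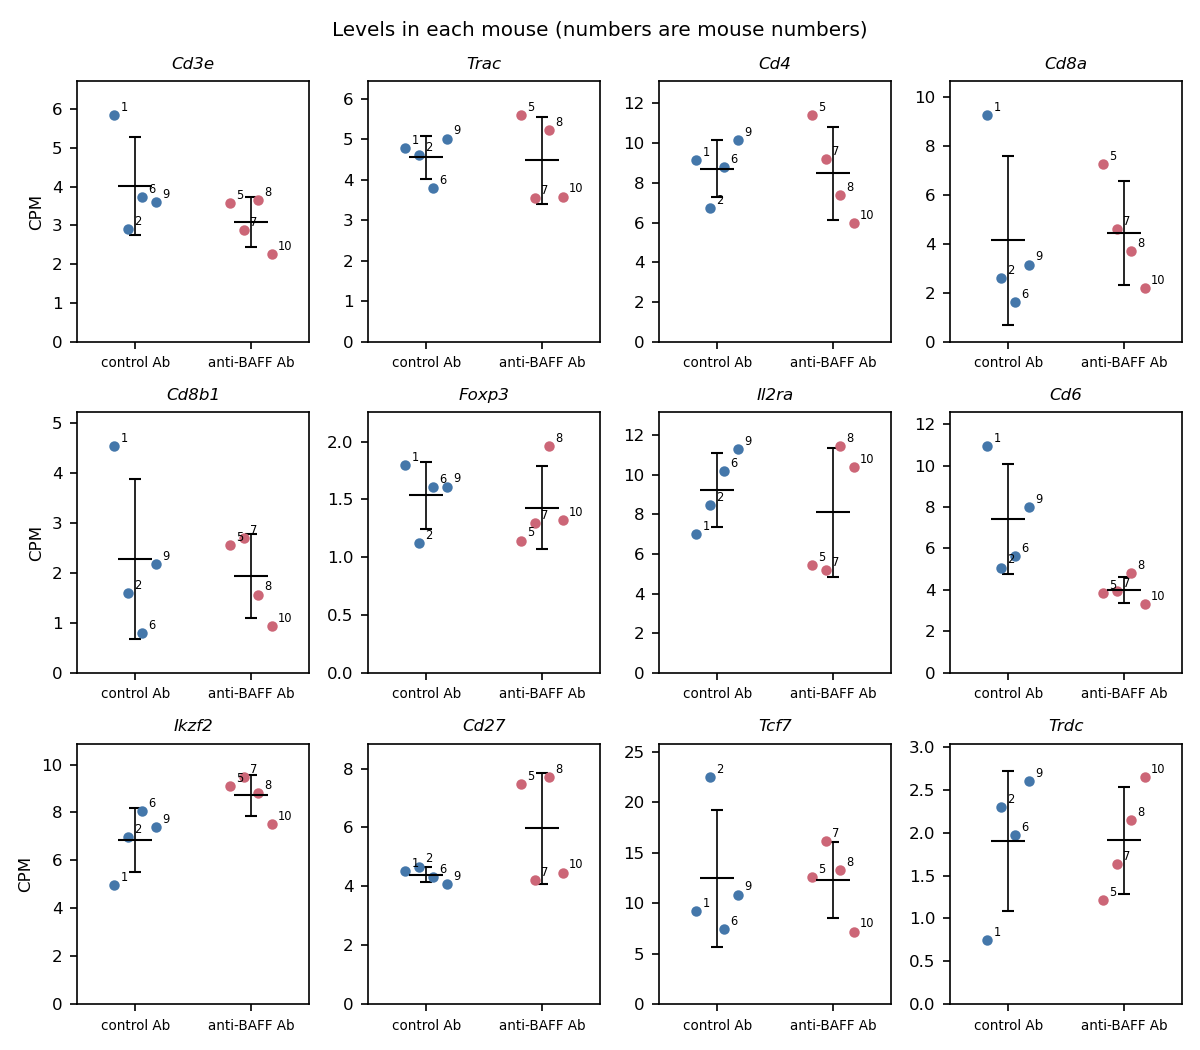
CPM of 12 genes in each mouse, with the mouse number beside each point; horizontal bars are means and vertical bars SDs of the 4 mice of a group, and each vertical axis starts at 0. The groups do not overlap for Cd6 only, and control mouse 1 is the highest of all mice in Cd3e, Cd8a, Cd8b1 and Cd6 and the lowest in Ikzf2 and Trdc.

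Cd4, the coreceptor of helper T cells that some myeloid cells also carry, was at 9.12, 6.74, 8.78 and 10.2 CPM against 11.4, 9.18, 7.37 and 5.96 CPM. The highest and the lowest of the 8 mice were both in the anti-BAFF group, and the log2 fold change was -0.04 (-0.53 to 0.45).

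The CD8 genes varied most between mice. Cd8a was at 9.24, 2.60, 1.61 and 3.16 CPM against 7.27, 4.62, 3.72 and 2.21 CPM, and Cd8b1, the beta chain found on conventional cytotoxic T cells, at 4.53, 1.60, 0.805 and 2.17 CPM against 2.56, 2.70, 1.57 and 0.938 CPM. The highest mouse, control mouse 1, exceeded the lowest, control mouse 6, by 5.74-fold in Cd8a and 5.63-fold in Cd8b1, whereas the groups lay over each other. The log2 fold changes were 0.09 (-1.14 to 1.32) for Cd8a and -0.24 (-1.40 to 0.93) for Cd8b1, the widest intervals of the set. Without control mouse 1 they were 0.83 and 0.32, neither with an adjusted p under 0.05 by edgeR. Both chains moved together over the 8 mice (Pearson r = 0.93, permutation p = 0.00141, adjusted p = 0.00990 over 7 relations; Spearman rho = 0.90, permutation p = 0.00456, adjusted p = 0.0319), and r was 0.91 without the 2 mice farthest in Cd8a. The values had been seen when the 7 relations, among them that of Tcf7 with Adam7, were chosen. None of the other 6 had an adjusted permutation p under 0.05, and that of Cd3e with Cd3g, which gave r = 0.74 over 8 mice, was -0.20 without control mouse 1 and anti-BAFF mouse 10. As a ratio within each mouse, the log2 ratio of Cd8a to Cd4 in CPM was 0.02, -1.33, -2.36 and -1.65 in the control Ab-treated mice and -0.64, -0.97, -0.96 and -1.38 after anti-BAFF Ab. Its mean was -1.33 ± 1.00 and -0.99 ± 0.31 (SD, n = 4), and the groups overlapped. Single mice set this difference of 0.34, which was 0.79 without control mouse 1 and -0.0025 without control mouse 6.

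The regulatory T cell genes gave no difference beyond the spread between mice. Foxp3, on chromosome X, was at 1.80, 1.12, 1.61 and 1.61 CPM against 1.14, 1.29, 1.96 and 1.32 CPM, which rests on 17 to 30 counts per mouse. Its log2 fold change was -0.10 (-0.69 to 0.48). Il2ra, the high-affinity chain of the interleukin-2 receptor, was at 7.01, 8.45, 10.2 and 11.3 CPM against 5.45, 5.18, 11.4 and 10.4 CPM. Anti-BAFF mice 5 and 7 lay below all 4 control mice and anti-BAFF mice 8 and 10 among the highest, so that the value of -0.19 (-0.83 to 0.46) averages over a split group. Ctla4, an inhibitory receptor that regulatory T cells carry constantly, was at 9.86, 6.15, 4.68 and 6.69 CPM against 7.47, 4.50, 7.05 and 3.36 CPM (-0.30, -0.99 to 0.39). Its value was -0.086 without control mouse 1 and -0.11 without anti-BAFF mouse 10. Tnfrsf18, which codes for the costimulatory receptor GITR, ranged from 3.27 to 6.69 CPM (-0.12, -0.69 to 0.45). The opposite-strand gene Gm16008 overlaps Tnfrsf18 and held 6 to 16 counts per mouse, with a log2 fold change of -0.87 (unadjusted p = 0.0151 and adjusted p = 1.00 by edgeR), and its reads may be mixed into those of Tnfrsf18.

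Tnfrsf4 and Ikzf2 had the smallest p of this group, in opposite directions. Tnfrsf4, which codes for the costimulatory receptor OX40, was at 6.08, 3.43, 5.93 and 7.19 CPM against 4.51, 2.37, 4.05 and 4.19 CPM. The groups overlapped only through control mouse 2, and the log2 fold change was -0.58 (-1.21 to 0.04), with an unadjusted p of 0.0646 and an adjusted p of 1.00 by edgeR. Ikzf2, the factor Helios of regulatory T cells, was at 4.96, 6.98, 8.05 and 7.37 CPM against 9.09, 9.46, 8.81 and 7.50 CPM. Anti-BAFF mice 5, 7 and 8 exceeded every control mouse, while anti-BAFF mouse 10 lay between control mice 9 and 6, and the log2 fold change was 0.35 (-0.03 to 0.73), with an unadjusted p of 0.0694 and an adjusted p of 1.00 by edgeR. Control mouse 1 was the lowest in Ikzf2, and without it the value was 0.20. The log2 ratio of Foxp3 to Cd3e within each mouse was -1.29 ± 0.24 after control Ab and -1.05 ± 0.36 after anti-BAFF Ab (SD, n = 4), with overlapping groups and no test.

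Among costimulatory receptors, Cd27, which binds CD70 and favours T cell survival, was at 4.53, 4.67, 4.32 and 4.09 CPM against 7.47, 4.22, 7.70 and 4.47 CPM. The control values had an SD of 0.254 CPM, and anti-BAFF mice 5 and 8 stood above them while anti-BAFF mice 7 and 10 did not. Its log2 fold change of 0.44 (-0.08 to 0.95), with an unadjusted p of 0.0909 and an adjusted p of 1.00 by edgeR, therefore rests on those mice. The opposite-strand gene Vamp1, with 88 to 165 counts per mouse, overlaps Cd27. Cd28, the main costimulatory receptor of naive T cells, was at 12.6, 9.46, 10.1 and 18.2 CPM against 13.1, 9.63, 11.8 and 11.8 CPM (-0.12, -0.60 to 0.35). Icos, its inducible relative, was at 7.82, 7.03, 8.12 and 9.48 CPM against 7.81, 6.36, 9.66 and 8.05 CPM (-0.03, -0.39 to 0.34). The groups overlapped for both receptors.

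Pdcd1 and Lag3, checkpoint receptors of activated T cells, had estimates below 0. The part of other cells of the unsorted SVF in their values was not tested. Pdcd1, which codes for PD-1, was at 17.5, 6.74, 6.88 and 8.92 CPM against 9.83, 9.07, 6.98 and 6.07 CPM. Control mouse 1 held the highest value by far, and the log2 fold change of -0.33 (-1.05 to 0.39) became 0.07 without it. Lag3, a receptor for MHC class II, ranged from 7.45 to 11.0 CPM in the control Ab-treated mice and from 6.66 to 7.66 CPM after anti-BAFF Ab (-0.27, -0.62 to 0.08). The groups overlapped through the 2 lower control mice, and without control mouse 1 the value was -0.36.

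The chemokine receptor Cxcr3, carried by type 1 helper and CD8+ T cells, ranged from 4.17 to 7.14 CPM with a log2 fold change of -0.01 (-0.49 to 0.47). Cxcr6, a receptor of tissue-resident T cells, ranged from 3.55 to 10.9 CPM after control Ab and from 4.0 to 6.67 CPM after anti-BAFF Ab (-0.63, -1.37 to 0.11). Control mouse 2 held the lowest and control mouse 9 the highest of the 8 values. Cxcr6 lies within the span of the opposite-strand gene Fyco1, which held 542 to 810 counts per mouse. Reads of Fyco1 may be mixed into those of Cxcr6 if strand was not used in counting. Cxcl16, the ligand of Cxcr6, was at 69.9 to 88.2 CPM in the control Ab-treated mice and 80.2 to 89.7 CPM after anti-BAFF Ab (0.16), and Cxcl9, a ligand of Cxcr3, at 18.5 to 31.6 CPM against 17.0 to 23.8 CPM (-0.33).

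The T cell genes varied between single mice of both groups. Control mouse 1 was the highest of the 8 mice for 15 of the 36 genes (41.7%), against 26.7% of all genes tested, and its median difference from the mean of the other 7 mice was 0.49 on the log2 scale, against 0.00 over all genes tested. Control mouse 9 was highest for 8 genes (12% of all genes), with a median difference of 0.29. Anti-BAFF mouse 10 was the lowest for 10 genes (27.8%, against 8.91% of all genes tested), and control mouse 2 (9.86% of all genes) and anti-BAFF mouse 7 (9.41%) for 7 genes each. The median difference was -0.21 in anti-BAFF mouse 10, -0.23 in control mouse 2 and -0.24 in anti-BAFF mouse 7. Anti-BAFF mice 8 and 5 had median differences of 0.12 and 0.09. In each of them 21 of the 36 genes lay above the mean of the other 7 mice. The largest positive differences were thus those of control mice 1 and 9. Mice with lower T cell transcripts were found in both groups. Summed over the 36 genes, the level was 266 to 346 CPM in the control Ab-treated mice and 272 to 308 CPM after anti-BAFF Ab, a sum that Il7r dominates.

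**Figure D4:**
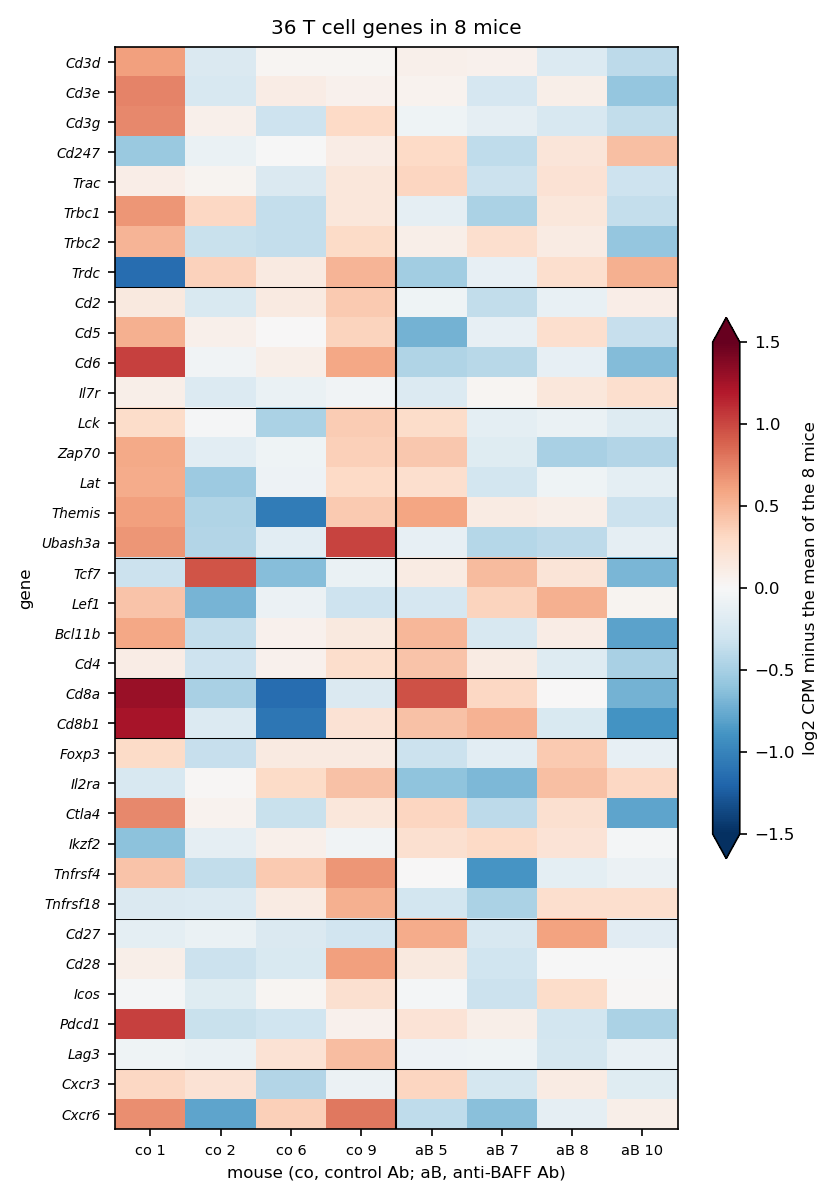
Colour is the log2 CPM of a gene in a mouse minus its mean over the 8 mice, for the 36 genes (rows, grouped by role) and 8 mice (columns; co, control Ab; aB, anti-BAFF Ab). Control mouse 1 is the highest in 15 rows and anti-BAFF mouse 10 the lowest in 10, and Cd8a and Cd8b1 show the strongest contrasts between mice.

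The V genes of the T cell receptor, which the choice of the 36 genes did not use, were counted as a separate set. Which cells of the unsorted SVF gave these counts was not tested. Of 144 V genes in the table, 70 had a count in any mouse, with 669 counts in all (157 alpha, 329 beta, 61 gamma, 119 delta and 3 of a gene on chromosome 14 whose name gives no chain). Their summed level was 4.96, 5.32, 3.88 and 5.58 CPM in the control Ab-treated mice and 5.12, 5.97, 4.83 and 5.52 CPM after anti-BAFF Ab. The means were 4.93 ± 0.748 and 5.36 ± 0.495 CPM (SD, n = 4, two-sided exact permutation test on log2(CPM + 1), p = 0.429, where the smallest p possible with 4 against 4 is 0.0286). The number of V genes with a count was 28, 31, 24 and 32 against 27, 26, 27 and 35, with a mean of 28.8 in both groups (exact permutation p = 1.00). At this depth, with 53 to 106 V counts per mouse, only large differences could be seen.

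Single V genes differed between mice. Trbv13-1, a beta V gene at chr6:41116007-41116468, took 25 of the 80 V counts of control mouse 1 (31.2%, exact 95% interval 21.4 to 42.6%, which covers counting error only) and between 0 and 7 counts in each other mouse. Trbv16, at chr6:41151740-41152230, took 27 of the 106 V counts of anti-BAFF mouse 7 (25.5%, 17.5 to 34.9%), 12 counts in anti-BAFF mouse 8 and 2 to 6 in the others. Trdv4, a delta V gene at chr14:54074905-54075515 and the V gene with the most counts overall (108), had 1 count in control mouse 1 and 9 to 24 in every other mouse. Control mouse 1, the mouse with the most Cd8a, thus had the fewest counts of both Trdv4 and Trdc. These genes were picked after their counts were seen, and PCR duplicates were not told apart from molecules.

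**Figure D5:**
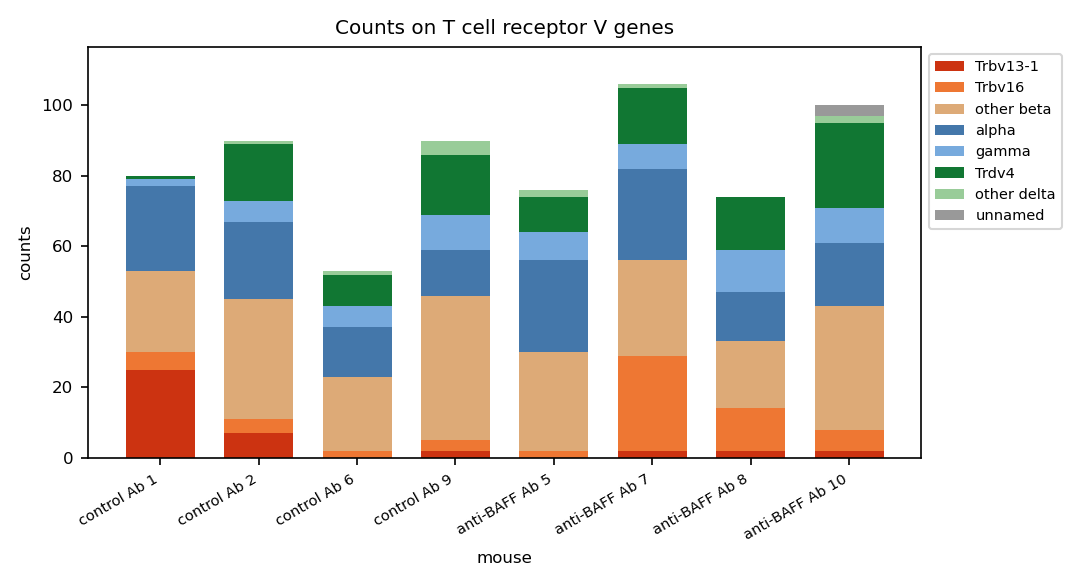
Bars are raw counts on T cell receptor V genes in each mouse, stacked by locus (unnamed, a gene whose name gives no chain), with Trbv13-1, Trbv16 and Trdv4 drawn apart. Trbv13-1 makes up 25 of 80 counts in control mouse 1, Trbv16 27 of 106 in anti-BAFF mouse 7, and Trdv4 is nearly absent from control mouse 1.

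Lists of related genes outside the 36 showed no adjusted call either. Of 20 further genes of receptor signaling, 18 were tested, with 8 estimates below 0, 10 above and a median log2 fold change of 0.03. Among them were Lcp2 (0.18), Plcg1 (-0.09) and Trat1 (-0.41), with unadjusted p of 0.155, 0.342 and 0.373 by edgeR.

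Of 15 genes known from fat-resident regulatory T cells, 10 had estimates below 0 and the median was -0.10. Gata3, a factor of type 2 lymphocytes, was at 9.24, 11.8, 13.8 and 15.4 CPM against 7.54, 8.39, 11.9 and 7.50 CPM (-0.51, unadjusted p = 0.0340 and adjusted p = 1.00 by edgeR), with overlapping groups. Il1rl1, the receptor for interleukin-33, was at 46.9 to 78.3 CPM against 76.8 to 91.2 CPM (log2 fold change 0.33). Prdm1, a repressor of many activated lymphocytes, was at 36.9 to 47.7 CPM against 42.4 to 54.7 CPM (0.25), and Pparg, the fat cell factor that fat-resident regulatory T cells share, differed by -0.10. The unadjusted p of these genes by edgeR were 0.0620, 0.0515 and 0.317. Il1rl1 and Gata3 are also markers of group 2 innate lymphoid cells and are themselves among the 6 genes listed for these cells. Of those 6 genes, 4 lay below 0. The summed level of the list was 65.3 to 115 CPM after control Ab and 91.6 to 112 CPM after anti-BAFF Ab. Il1rl1 dominates that sum, so it is not a separate measure of these cells. The part of these cells in the values of Il1rl1 and Gata3 was not tested.

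Helper T cell genes (11 of 15 tested, 7 below 0, median -0.01) included Cxcr5, the receptor of follicular helper T cells and of B cells for Cxcl13, at 3.85, 6.80, 8.27 and 7.06 CPM against 4.38, 1.97, 4.44 and 1.88 CPM. Its groups overlapped through control mouse 1, and the log2 fold change was -1.04 (unadjusted p = 0.0170, adjusted p = 1.00 by edgeR). It moved in the direction of the B cell markers given above, whose part in it was not tested. Cd40lg, the ligand through which helper T cells activate B cells, was at 2.92, 0.650, 1.83 and 4.15 CPM against 0.269, 0.563, 0.979 and 2.43 CPM (-1.15, unadjusted p = 0.126 by edgeR), Il4 differed by 0.27 and Rora by 0.06. The cytokines Ifng, Il2, Il17a and Il21 were too low to be tested, with at most 0.875 CPM of Ifng in any mouse.

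Of 8 gamma delta and innate-like T cell genes, 5 were tested and all 5 had estimates below 0 (median -0.16). Those with the smallest p were Zbtb16 (-0.26) and Cd163l1 (-0.20). Of 8 naive and recirculating T cell genes, 7 were tested with a median of 0.05, among them Klf2 (-0.28), Ccr7 (-0.11) and Actn1 (0.06), most of which other cells of the SVF express as well. Of 9 cytotoxic genes, 7 lay below 0 and the median was -0.15. Gzmb, a granule protease that other leukocytes also make, was at 21.2, 7.92, 16.1 and 16.5 CPM against 18.7, 25.0, 25.5 and 23.9 CPM (0.59, unadjusted p = 0.0457 and adjusted p = 1.00 by edgeR). Gzmk differed by -0.93, Ccl5 by -0.15 and Eomes by 0.09. Of 17 ligands of the 36 receptors, 13 were tested, with 8 below 0 and a median of -0.01, and beside Cxcl16 the smallest p among estimates above 0 was that of Tnfsf4, the ligand of Tnfrsf4 (0.39, unadjusted p = 0.125 by edgeR). Tnfsf18, the ligand of Tnfrsf18, differed by -0.27 and Cd70 was too low to be tested. NK cell markers, which share cytotoxic genes with CD8+ T cells, summed to 8.06 to 11.5 CPM after control Ab and 7.15 to 10.9 CPM after anti-BAFF Ab.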

How the data were processed

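Bulk RNA sequencing of the SVF of gonadal WAT was analysed for 4 control Ab-treated and 4 anti-BAFF Ab-treated mice, whose labels give the treatment and a mouse number. Libraries were read paired-end (NovaSeq), and the authors deposited unnormalized counts per gene with coordinates and gene lengths. The submitters' processing notes name mm10. The aligner, the counting tool and the use of strand are not given in the sources used here, and all 36 genes overlapped the gene of the same symbol in RefSeq's GRCm38.p6 table. In the methods, expression was given as FPKM and genes under an adjusted p of 0.05 were called; FPKM was recomputed here from the deposited counts and gene lengths.

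Counts went into edgeR 4.0.16, run in R 4.3.3 (filterByExpr with a minimum count of 10, TMM, quasi-likelihood fit with treatment as the only term), with Benjamini-Hochberg adjustment over 15963 genes. The scripts were tested on simulated data. Replicates were separate mice, and mouse numbers differ between the groups, so there was no pairing. The labels give no sequencing batch. DESeq2 1.42.0, limma 3.58.1 on log2(FPKM + 1), other normalizations and filters, and leaving out each mouse were alternatives, and leaving out the 2 mice highest in epididymis genes was added after seeing the data. Values per mouse and permutation tests used Python 3.11.15 and scipy 1.17.1, with a pseudocount of 1 for V gene sums.

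The 36 genes, the other gene lists and the markers were chosen with earlier results of these data known. Values are printed for every mouse for Cd3d, Cd3e, Cd3g, Trac, Trbc1, Trbc2, Cd4, Cd8a, Cd8b1, Foxp3, Il2ra, Ctla4, Ikzf2, Icos, Cd28, Pdcd1, the 4 genes with the smallest p in each direction and any gene whose groups do not overlap, and from the other T cell and ligand lists the 2 genes with the smallest p in each direction are named. Marker lists of other cell types are given by sums and medians. Some genes of these lists are not reported here by name. Tcf7, the V genes, the 7 correlations, the motifs and the promoters printed were picked after their values or matches were seen. Of the other marker lists, macrophage markers had a median log2 fold change of 0.00, dendritic cell markers of -0.08, neutrophil markers of 1.34 (summed level 56.1 to 277 CPM, highest in anti-BAFF mouse 5), NK cell markers of -0.04 and epididymis markers of 0.15.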

Additional observations from a re-analysis of the deposited data

Results flagged for a closer look

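Of 96 groups of 4 mice checked (the log2 CPM of each of the 36 genes and per-mouse measures), 3 had a mouse whose gap to the nearest of the others exceeded Dixon's 95% critical value as a share of the group's range. Chance gives such a gap in about 1 in 20 groups, or 4.8 of 96. Anti-BAFF mouse 7 was low in Tnfrsf4, at 1.32 log2 CPM (2.37 CPM), where the gap was 0.83 of the range. On the CPM scale that share was 0.783, below the critical value. Anti-BAFF mouse 5 was high in the mean log2 CPM of the 5 proximal signaling genes, at 2.19, and anti-BAFF mouse 7 was low in that of the chemokine receptors Cxcr3 and Cxcr6, at 2.16.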

How the results depend on the processing

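No paired analysis was possible because the mouse numbers differ between the groups. The count of 0 genes at an adjusted p of 0.05 held under every alternative run, as did the negative median log2 fold change. That median was -0.18 to -0.14 over other normalizations, filters, the robust option and DESeq2. By limma it was -0.08, on log2(FPKM + 1), where the added 1 shrinks differences of genes at low FPKM. It was -0.25 to -0.07 when each mouse was left out, and -0.24 without the 2 mice highest in epididymis genes (control mouse 2 and anti-BAFF mouse 7, a choice made after seeing the data). The count at an unadjusted p under 0.05 was 2 by DESeq2 (1.34% of all genes) and 2 by limma (2.12%). It was 3 without those 2 mice, where 184 of all 15879 genes tested were lower and 49 higher. When each mouse was left out it was 1 to 4. It was 4 without control mouse 2 (192 lower and 81 higher of 16148 genes). Without control mouse 6 it was also 4 (199 and 88 of 16202). Without control mouse 1 it was 1, where 842 of 16261 genes were lower and 866 higher. Cd6 was among the genes called each time. Of 359 log2 fold changes of single genes under alternatives other than leaving out a mouse, 348 kept their direction and side of the threshold. The reversed values were those of Trac (0.059), Themis (-0.0092), Tcf7 (0.24), Cd8a (-0.11) and Cxcr3 (0.13) without the 2 epididymis-high mice, of Tcf7 by limma (0.027), and of Trdc under RLE (-0.0014), upper quartile (-0.022), library size alone (-0.014), no filter (-0.0046) and at least 10 counts in every mouse (-0.011). Leaving out 1 mouse turned 34 of 288 such values. The ranges of the 16 genes concerned were Trac (-0.16 to 0.070), Trbc2 (-0.20 to 0.085), Trdc (-0.28 to 0.20), Lck (-0.26 to 0.0072), Lat (-0.33 to 0.001), Themis (-0.10 to 0.40), Tcf7 (-0.21 to 0.42), Bcl11b (-0.44 to 0.0075), Cd4 (-0.23 to 0.099), Cd8a (-0.26 to 0.83), Cd8b1 (-0.51 to 0.32), Tnfrsf18 (-0.24 to 0.073), Cd28 (-0.24 to 0.11), Icos (-0.14 to 0.059), Pdcd1 (-0.48 to 0.067) and Cxcr3 (-0.14 to 0.081). Control mouse 1 turned Trbc2, Trdc, Lat, Cd8b1, Pdcd1 and Cxcr3, and control mouse 9 turned Trac, Trbc2, Lck, Cd4, Cd8a, Tnfrsf18, Cd28 and Icos. Control mouse 2 turned Themis, Tcf7, Cd8a and Cxcr3, control mouse 6 Themis and Cd8a, anti-BAFF mouse 5 Themis and Cd8a, anti-BAFF mouse 7 Trac, Icos and Cxcr3, anti-BAFF mouse 8 Trdc and Cd4, and anti-BAFF mouse 10 Trac, Trbc2, Trdc, Tcf7, Bcl11b, Cd4 and Cxcr3. With all 8 mice the intervals of these genes include 0, and the cause was not tested. Foxp3, Lef1, Themis, Trdc and the V genes rest on few counts, which limits what this depth can show.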
